A study of Mus musculus with 34 samples.

Results

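Crym, which encodes the thyroid hormone-binding protein mu-crystallin, was examined together with 4 genes of thyroid hormone action, the receptor genes Thra and Thrb and the deiodinase genes Dio1 and Dio2. These 5 genes were picked from the 19057 gene symbols that carry a probe on the array, and 7 probes measure them (1 for Crym, 1 for Thra, 1 for Thrb, 2 for Dio1 and 2 for Dio2). Crym was picked for its difference between GFP+ and GFP- CD24+/CD29lo cells, so its values there are a description and carry no test. The other 4 genes were picked by name, with earlier results of these data known. Expression was measured on Illumina WG-6 v2 arrays in mammary epithelial cells (MECs) sorted from mice 4 weeks of age that carry MMTVrtTA and a tetracycline-inducible H2BGFP, a histone fused to green fluorescent protein. The strain is CD1 backcrossed to FVB, and breeders and experimental animals received doxycycline, so both transgenes and the inducer are common to all samples. There were 9 GFP+ CD24+/CD29+ samples, 6 GFP- CD24+/CD29+ samples, 9 GFP+ CD24+/CD29lo samples and 10 GFP- CD24+/CD29lo samples, 34 in all. The CD24+/CD29+ gate holds the basal, stem cell-containing MECs and the CD24+/CD29lo gate the luminal, progenitor-containing MECs.

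The groups have limits as a model. GFP marks cells in which the mouse mammary tumor virus promoter drove the transactivator, and that expression is mosaic, so a GFP- cell still carries both transgenes. The labels do not say whether the samples of a group came from separate animals, so p-values measure the spread between these samples, which may be technical. Each array reads a pool of sorted cells, in which fewer cells of a type and less RNA per cell cannot be told apart.

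Thyroid hormone acts mainly through nuclear receptors, encoded by Thra and Thrb, that bind triiodothyronine and switch target genes. The prohormone thyroxine becomes triiodothyronine when deiodinases remove an iodine atom, Dio2 doing so inside the cell and Dio1 mostly in liver, kidney and thyroid, whereas Dio3 inactivates the hormone. Mu-crystallin binds triiodothyronine in the cytosol with the help of NADPH and is also a ketimine reductase of the lysine degradation pathway. In the mammary gland the sodium-iodide symporter Slc5a5 is known for moving iodide into milk.

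The arrays detected a median of 37.8% of probes in GFP+ CD24+/CD29+ cells, 34.6% in GFP- CD24+/CD29+ cells, 39.2% in GFP+ CD24+/CD29lo cells and 39.1% in GFP- CD24+/CD29lo cells, where a probe counts as detected if its signal exceeded that of negative control beads at a detection p under 0.05. The lowest share, 26.3%, was that of GFP+ CD24+/CD29lo replicate 22. The processed values fall into 2 sets of arrays by their medians, replicates 1 to 12 and 13 to 34, and all 6 GFP- CD24+/CD29+ arrays lie in the second set. Marker sums followed the gates: the summed normalised signal of 8 basal markers lay between 30495 and 58309 in GFP+ CD24+/CD29+ cells and between 27005 and 37149 in GFP- CD24+/CD29+ cells, against 1012 to 6029 in GFP+ CD24+/CD29lo cells and 562 to 2412 in GFP- CD24+/CD29lo cells. The eGFP probe reads the reporter itself. Each GFP+ group detected it on 9 of 9 arrays, and the GFP- CD24+/CD29lo group on 1 of 10. Its mean was 9.90 ± 0.99 (log2, SD, n = 9) in GFP+ CD24+/CD29+ cells and 6.25 ± 1.08 on the 6 GFP- CD24+/CD29+ arrays, where 4 of 6 arrays detected it and so go partly against their label, replicates 13 and 25 being the exceptions.

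A single probe reads Crym, and its sequence is shown because every Crym value rests on these bases. It begins at base 987 of the transcript in the study's annotation of the probe and no base is marked.
Crym probe ILMN_2913563: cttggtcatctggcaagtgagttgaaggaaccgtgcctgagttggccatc

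Crym was high in 1 of the 4 populations. In GFP+ CD24+/CD29+ cells its normalised level (log2, all 34 arrays normalised together) was 4.43 at the lowest, 4.55 at the median and 5.21 at the highest, and it was detected on 0 of 9 arrays. In GFP- CD24+/CD29+ cells it was 4.45 at the lowest, 5.52 at the median and 7.85 at the highest, with detection on 3 of 6 arrays. In GFP+ CD24+/CD29lo cells it was 4.42, 4.83 and 6.57 on the same scale, with detection on 3 of 9 arrays. All 10 GFP- CD24+/CD29lo arrays detected Crym, at 8.81 to 10.23 with a median of 9.49, and none of the other 24 arrays reached the lowest of them. The deposited signals, before any correction, show the same separation, with 109.5 to 224.5 in GFP+ CD24+/CD29lo cells and 488.7 to 1417.8 in GFP- CD24+/CD29lo cells.

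**Figure D1:**
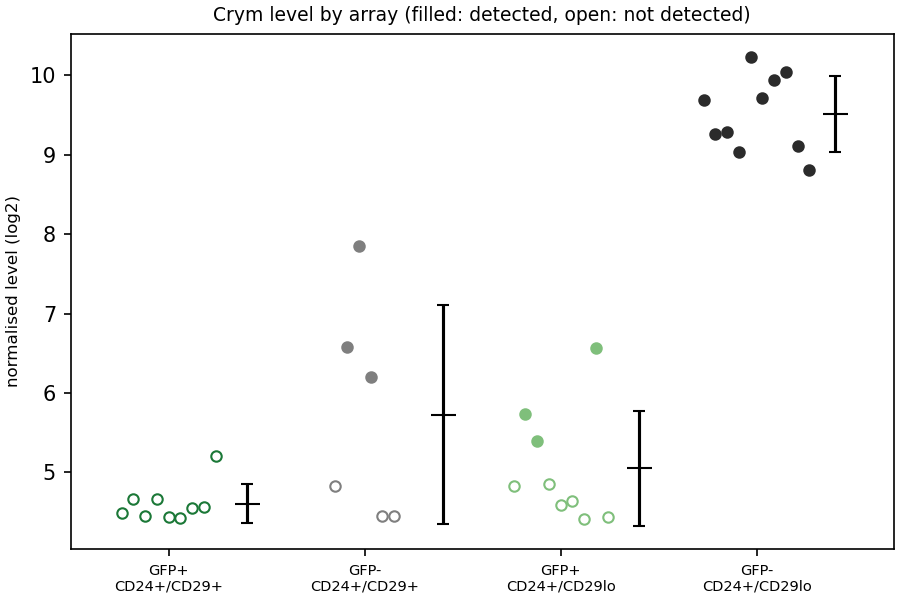
Normalised level of Crym (vertical axis, log2) on each array of the 4 sorted groups; filled points are detected, open points are not, and the bar beside each group is the mean and SD. The 10 GFP- CD24+/CD29lo arrays lie between 8.81 and 10.23, above every array of the other 3 groups.

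Ordered by mean level, the lowest Crym was 4.61 ± 0.24 (SD, n = 9) in GFP+ CD24+/CD29+ cells, then 5.05 ± 0.72 (n = 9) in GFP+ CD24+/CD29lo cells, 5.73 ± 1.38 (n = 6) in GFP- CD24+/CD29+ cells and 9.51 ± 0.48 on the 10 GFP- CD24+/CD29lo arrays. Only the last step of this order exceeds the spread between arrays, and the ranges of the other 3 groups overlap. The ordering held within the second set of arrays, where the same groups averaged 4.64, 4.93, 5.73 and 9.64. In the first set, which has no GFP- CD24+/CD29+ array, the means were 4.57 in GFP+ CD24+/CD29+ cells, 5.20 in GFP+ CD24+/CD29lo cells and 9.32 in GFP- CD24+/CD29lo cells.

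Within the CD24+/CD29lo gate, with its 19 arrays normalised together, GFP+ cells differed from GFP- cells by -4.44 (log2, SE 0.27), the lowest of the 31919 probes kept. The next were Gpnmb at -3.88, a glycoprotein of melanosomes and lysosomes, and Apof at -3.65, an apolipoprotein. This difference chose Crym and is given as a description. Crym was not detected on 6 of the 9 GFP+ arrays, and the difference was -2.68 with no background correction and -2.63 in the authors' processed values. Among GFP- cells, CD24+/CD29+ differed from CD24+/CD29lo cells by -3.78 (SE 0.37), or -2.39 with no background correction, with no overlap between arrays. That comparison uses the same 10 GFP- CD24+/CD29lo arrays. Among GFP+ cells the difference was -0.44 (SE 0.34), with both groups near background. The GFP difference in CD24+/CD29lo cells minus that in CD24+/CD29+ cells was -3.34 (SE 0.50), or -2.21 with no background correction, again a description with no test.

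In the CD24+/CD29+ gate, whose arrays took no part in choosing Crym, the level was 4.62 ± 0.22 (n = 9) in GFP+ cells and 5.71 ± 1.36 (n = 6) in GFP- cells, with the 15 arrays of the gate normalised together. The probe did not pass the filter on low values there and was not tested. It was not detected on any GFP+ array. With GFP+ values raised to the lowest detected signal of their array, the estimate was 1.54-fold lower in GFP+ cells. That estimate is no strict bound, because only 3 of 6 GFP- arrays detected Crym. When no filter was applied, limma gave the -1.09 difference an adjusted p of 0.673, so it did not pass the threshold. That value is adjusted over all probes and is no measure of the spread of these 15 arrays alone.

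That spread came from 3 GFP- CD24+/CD29+ arrays, replicates 21, 25 and 29, at 6.58, 7.85 and 6.20, while replicates 13, 30 and 33 had 4.83, 4.45 and 4.45 and were not detected. Replicate 25 also had the highest summed signal of the hormone-sensing luminal markers in its group, 1523, with 254 to 431 on the other 5 arrays, and Stc2 made up 74.9% of it. Its sum of 6 luminal markers was also the highest of the group, 7913, with 4394 to 5677 on the other 5 arrays. Its eGFP level was 5.15, not detected. Replicate 21 had the highest adipocyte sum, 4622, and replicate 29 the highest fibroblast sum, 2420. The adipocyte marker Fabp4 made up 49.3% to 96.5% of the adipocyte sum in this group. The adipocyte markers Adipoq, Plin1 and Cidec were detected on none of its arrays. The part of these other cell types in the Crym level was not tested.

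Hormone-sensing luminal markers were lower with Crym in GFP+ CD24+/CD29lo cells, and other marker lists moved too. Of the 10 listed, 7 have a named probe. Prlr, Areg and Ly6a were found under no probe by symbol and are left out here. The study itself reports Prlr and Areg as lower in GFP+ CD24+/CD29lo cells. The summed signal of the 7 ranged from 843 to 4421 in GFP+ CD24+/CD29lo cells and from 3386 to 16745 in GFP- CD24+/CD29lo cells. In the CD24+/CD29+ gate it was 237 to 526 in GFP+ cells and 254 to 1523 in GFP- cells. Stc2, a secreted glycoprotein, made up most of this sum in the luminal gate, a median of 77.9% in GFP+ cells and 81.1% in GFP- cells. Without Stc2 the sum of the other 6 genes was 186 to 671 in GFP+ CD24+/CD29lo cells and 691 to 1931 in GFP- CD24+/CD29lo cells. In GFP+ against GFP- CD24+/CD29lo cells, 0 of these 7 rose and 4 fell at an adjusted p under 0.05 (limma), where 1.03% of all probes were called, 0.229% higher and 0.802% lower. These were Esr1, the estrogen receptor (-2.74, adjusted p = 0.00154), Stc2 (-1.88, adjusted p = 0.00663), Pgr, the progesterone receptor (-1.86, adjusted p = 0.0156), and Foxa1, a pioneer factor of luminal cells (-1.54, adjusted p = 0.00373). Tnfsf11, Wnt4 and Cited1 did not pass the threshold.

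In the same comparison luminal progenitor markers went the other way, with 3 of 8 called higher and 0 lower, a median difference of 0.77 and sums of 10843 to 18307 in GFP+ CD24+/CD29lo cells and 5581 to 11934 in GFP- CD24+/CD29lo cells. The 3 were Csn3, a casein (0.80, adjusted p = 0.00295), Cd14, a lipopolysaccharide receptor (0.93, adjusted p = 0.0286), and Ltf, lactoferrin (0.87, adjusted p = 0.0343). Of 8 basal markers, 1 was called higher, Acta2, smooth muscle actin (2.61, adjusted p = 0.0437), and all 8 differences were above 0. Of 4 tested adipocyte markers, Fabp4, a fatty acid-binding protein, was called lower (-2.13, adjusted p = 0.0129). Of 6 luminal and 5 tested fibroblast markers limma called 0 (2 and 1 at an unadjusted p under 0.05). The part of these lists in the Crym difference was not tested. Foxa1 was detected on 0 of 15 CD24+/CD29+ arrays. Summed signals reached at most 182 for 5 endothelial, 225 for 6 haematopoietic and 480 for 6 skeletal muscle genes. Of these genes Lyz2, a lysozyme of myeloid cells, was detected most often, on 12 of 34 arrays, and Pecam1, an endothelial adhesion molecule, on 8, while Tek, Emcn, Ptprc and Ckm were detected on none.

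**Figure D2:**
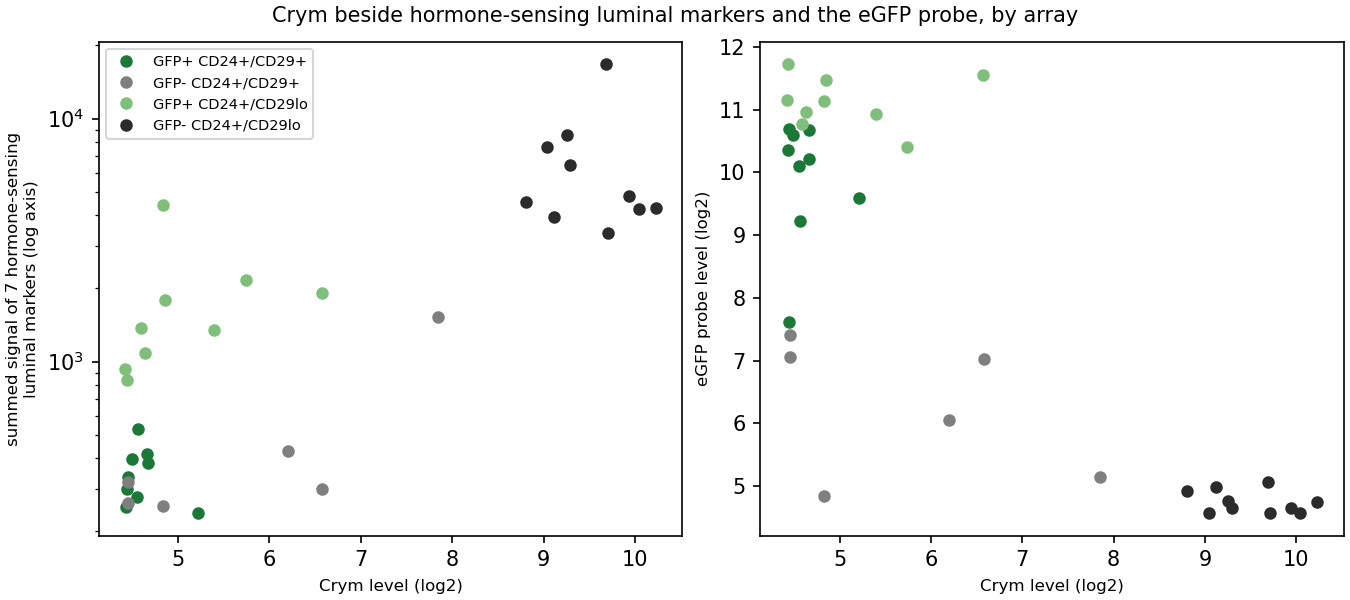
Crym level of each array (horizontal axes, log2) against the summed normalised signal of 7 hormone-sensing luminal markers (left, log axis) and against the level of the eGFP probe (right, log2), coloured by group. The GFP- CD24+/CD29lo arrays combine marker sums of 3386 to 16745 with Crym levels of 8.81 to 10.23, and GFP- CD24+/CD29+ replicate 25 stands at 1523 and 7.85. Stc2 makes up a median of 81.1% of the sum in the GFP- CD24+/CD29lo arrays.

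The genes whose level was most like that of Crym were ranked by Pearson's r over the 34 arrays, among 28444 probes with 1 symbol that were kept. The arrays share the 4 sorted groups, so r here mostly describes the same order of group means and is given with no p. Gipc2, a PDZ-domain protein, had the highest r at 0.95, then Ptger3, a prostaglandin E receptor, at 0.93 and Esr1 at 0.93. Trpc6, a cation channel, and Pcdha7, a protocadherin, followed at 0.91 each, and Tox3, an HMG-box protein, at 0.89. Esr1 stands here with probe ILMN_2604666, and the marker sums use another Esr1 probe.

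Each of these 6 genes was detected on all 10 GFP- CD24+/CD29lo arrays and on 0 to 1 of the 9 GFP+ CD24+/CD29+ arrays. Gipc2 had 5.74 ± 1.07 (n = 9) in GFP+ CD24+/CD29lo cells and 9.27 ± 0.35 on the 10 GFP- CD24+/CD29lo arrays. Over only the 10 GFP- CD24+/CD29lo arrays, where Crym ranged from 8.81 to 10.23, r was 0.67 for Gipc2, 0.03 for Ptger3 and -0.04 for Esr1. On the opposite end stood Hacd1, a fatty acid elongation enzyme, at -0.78, Nfe2l2, a regulator of the oxidative stress response, at -0.76 and Hmgn3, a nucleosome-binding protein, at -0.76. After each group was centred on its mean, the highest r belonged to Bcl2l14 (0.78), Tmem67 (0.78) and Slc12a1 (0.73), none of them among the 6 above, and Tmem67 was detected on 0 and Slc12a1 on 4 of the 34 arrays.

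**Figure D3:**
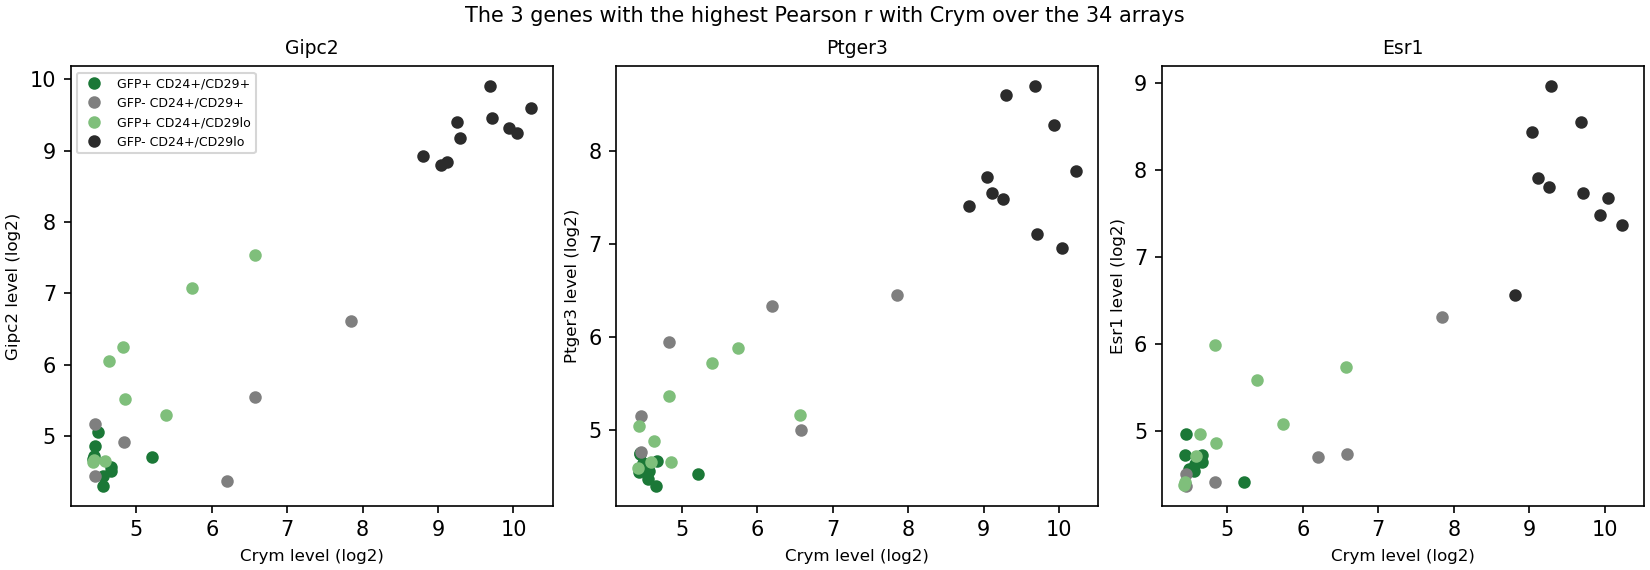
Levels (log2) of Gipc2, Ptger3 and Esr1 (vertical axes) against that of Crym (horizontal axes), 1 point per array coloured by group. The GFP- CD24+/CD29lo arrays form the upper right group in each panel, and within them Gipc2 has r = 0.67 with Crym while Ptger3 has 0.03 and Esr1 -0.04.

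The receptor probes gave little signal. Thra, the receptor gene of heart, brain and most other tissues, was detected on 1 of 34 arrays, a GFP+ CD24+/CD29lo array, and its group means lay between 4.55 and 4.68. It passed the filter in no comparison, so no difference of Thra was tested.

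Thrb, the other receptor gene, had a detected signal on 3 of 9 arrays of GFP+ CD24+/CD29+ cells and 4 of 6 of GFP- CD24+/CD29+ cells. In the CD24+/CD29lo gate the counts were 4 of 9 for GFP+ cells and 1 of 10 for GFP- cells. It was 4.46 at the lowest, 4.78 at the median and 5.85 at the highest in GFP+ CD24+/CD29+ cells, and 4.52, 6.31 and 7.52 in GFP- CD24+/CD29+ cells. In GFP+ CD24+/CD29lo cells it was 4.43, 4.71 and 5.87, and in GFP- CD24+/CD29lo cells 4.44, 4.63 and 5.35. The 4 arrays with the highest Thrb were all GFP- CD24+/CD29+ arrays, replicates 25, 33, 29 and 30 at 7.52, 7.04, 6.57 and 6.06, while replicates 13 and 21 of that group were not detected. Of the 3 arrays of this group that detected Crym, 2 (replicates 25 and 29) therefore had high Thrb and 1 (replicate 21) had not.

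Among GFP- cells Thrb rose in CD24+/CD29+ against CD24+/CD29lo cells, by 1.38 (log2, SE 0.33, adjusted p = 0.00385, limma). The groups overlapped, with 4 of 6 CD24+/CD29+ arrays above all 10 CD24+/CD29lo arrays. In the second set of arrays alone the difference was 1.29 with an adjusted p of 0.0535, and with no background correction it was 0.57. Leaving out any 1 array gave 1.09 to 1.69, with adjusted p up to 0.0236. On the GFP- CD24+/CD29+ arrays without eGFP signal, replicates 13 and 25, Thrb was 4.64 and 7.52. Fibroblast marker sums in the same arrays were 918 to 2420 in GFP- CD24+/CD29+ cells and 189 to 642 in GFP- CD24+/CD29lo cells, and their part in the Thrb level was not tested.

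Thrb passed no other test. Among GFP+ cells, CD24+/CD29+ differed from CD24+/CD29lo by -0.06 (SE 0.30, adjusted p = 0.958). GFP+ differed from GFP- cells by -1.10 (SE 0.41, adjusted p = 0.551) in the CD24+/CD29+ gate and by 0.35 (SE 0.21, adjusted p = 0.640) in the CD24+/CD29lo gate. The test of the gap between those GFP differences gave 1.44 (SE 0.44, adjusted p = 0.262).

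Dio2, which makes triiodothyronine inside the cell, was high in the CD24+/CD29+ gate and low in the CD24+/CD29lo gate. Probe ILMN_2771979 was at 5.06 on the lowest, 7.36 on the median and 7.80 on the highest GFP+ CD24+/CD29+ array, and 8 of 9 detected it. In GFP- CD24+/CD29+ cells it was 6.43, 8.30 and 9.56, and 6 of 6 arrays detected it. In GFP+ CD24+/CD29lo cells it was 4.49, 4.58 and 5.13 and was detected on 0 of 9 arrays, and in GFP- CD24+/CD29lo cells it was 4.50, 4.89 and 5.67, with detection on 5 of 10. Both CD24+/CD29+ groups thus carried Dio2, whereas Crym was high only in the GFP- CD24+/CD29lo group.

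Among GFP- cells Dio2 rose by 3.18 (log2, SE 0.37, adjusted p = 1.09e-07) in CD24+/CD29+ against CD24+/CD29lo cells, with all 6 CD24+/CD29+ arrays above all 10 CD24+/CD29lo arrays. Among GFP+ cells it rose by 2.12 (SE 0.34, adjusted p = 2.08e-05). No CD24+/CD29lo array detected it there. With these arrays raised to their lowest detected signal, the estimated rise was 3.06-fold. Of 9 CD24+/CD29+ arrays, 8 lay above all 9 CD24+/CD29lo arrays, and replicate 11, at 5.06, lay below GFP+ CD24+/CD29lo replicate 22, at 5.13. With no background correction these differences were 1.67 among GFP- cells and 0.92 among GFP+ cells, both still past the threshold. Leaving out any 1 array gave 2.89 to 3.52 among GFP- cells and 2.00 to 2.33 among GFP+ cells. On GFP- CD24+/CD29+ replicates 13 and 25, without eGFP signal, Dio2 was 8.08 and 9.03.

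Some listed markers of fibroblasts and adipocytes were also higher in the CD24+/CD29+ gate. Fibroblast sums were 345 to 1328 in GFP+ CD24+/CD29+ cells and 206 to 557 in GFP+ CD24+/CD29lo cells, and 2 of 7 genes were called higher, Col1a2, a collagen (1.84), and Dcn, decorin (2.86). Among GFP- cells 4 of 7 were called higher, Col1a2 (3.05), Col3a1 (3.26), Dcn (2.51) and Fn1, fibronectin (1.59), with sums of 918 to 2420 in CD24+/CD29+ cells and 189 to 642 in CD24+/CD29lo cells. Of 4 tested adipocyte genes, Fabp4 and Lep were called higher among GFP+ cells (2.65 and 1.35) and Fabp4 among GFP- cells (2.31). Cidec was detected on no GFP+ CD24+/CD29+ array, and Adipoq, Plin1 and Cidec on no GFP- CD24+/CD29+ array. Of all probes, 5.53% were called higher among GFP+ cells and 5.29% among GFP- cells. The part of these cell types in the Dio2 difference between the gates was not tested.

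GFP status did not separate Dio2 in either gate at the threshold. GFP+ differed from GFP- CD24+/CD29+ cells by -1.42 (SE 0.54, adjusted p = 0.551), with a 95% interval of -2.58 to -0.26 before adjustment, and 3 of 9 GFP+ arrays below all GFP- arrays. The GFP- arrays all lie in the second set, at a mean of 8.16 with all 34 arrays normalised together. On that scale GFP+ CD24+/CD29+ arrays averaged 6.25 in the first set and 7.18 in the second. In the CD24+/CD29lo gate the GFP difference was -0.36 (SE 0.16, adjusted p = 0.460). Fibroblast sums and, through Fabp4, adipocyte sums were lower at the median in GFP+ cells of the basal gate, as Dio2 was. Adipocyte sums were 141 to 750 in GFP+ CD24+/CD29+ cells and 271 to 4622 in GFP- CD24+/CD29+ cells. Fibroblast sums were 345 to 1328 in GFP+ CD24+/CD29+ cells and 918 to 2420 in GFP- CD24+/CD29+ cells. Of 4 tested adipocyte and 6 tested fibroblast markers limma called 0 there (1 and 3 at an unadjusted p under 0.05). Of all probes, 0.0305% were called and 8.76% had such an unadjusted p. Fabp4 made up a median of 62.6% of the adipocyte sum in GFP+ CD24+/CD29+ cells and 87.7% in GFP- CD24+/CD29+ cells. Without Fabp4 the median adipocyte sum was 135 in GFP+ CD24+/CD29+ cells and 136 in GFP- CD24+/CD29+ cells. In GFP- CD24+/CD29+ cells Fabp4 was detected on 6 of 6 and Lep, leptin, on 4 of 6 arrays, and Adipoq, Plin1 and Cidec on none. The part of either sum in the Dio2 level was not tested. The other Dio2 probe, ILMN_2766037, was detected on 0 of 34 arrays, so the Dio2 results rest on 1 of its 2 probes.

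Dio1, the deiodinase of liver and kidney, was near background throughout. Probe ILMN_2647234 was detected on 1 of 34 arrays, in GFP- CD24+/CD29+ cells, with group means between 4.59 and 4.80, and probe ILMN_2772070 on 0 of 34. The tested Dio1 probe differed by -0.07 to 0.17 across the 5 contrasts, with adjusted p between 0.477 and 0.974 (limma), and the intervals reached from -0.41 to 0.44.

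**Figure D4:**
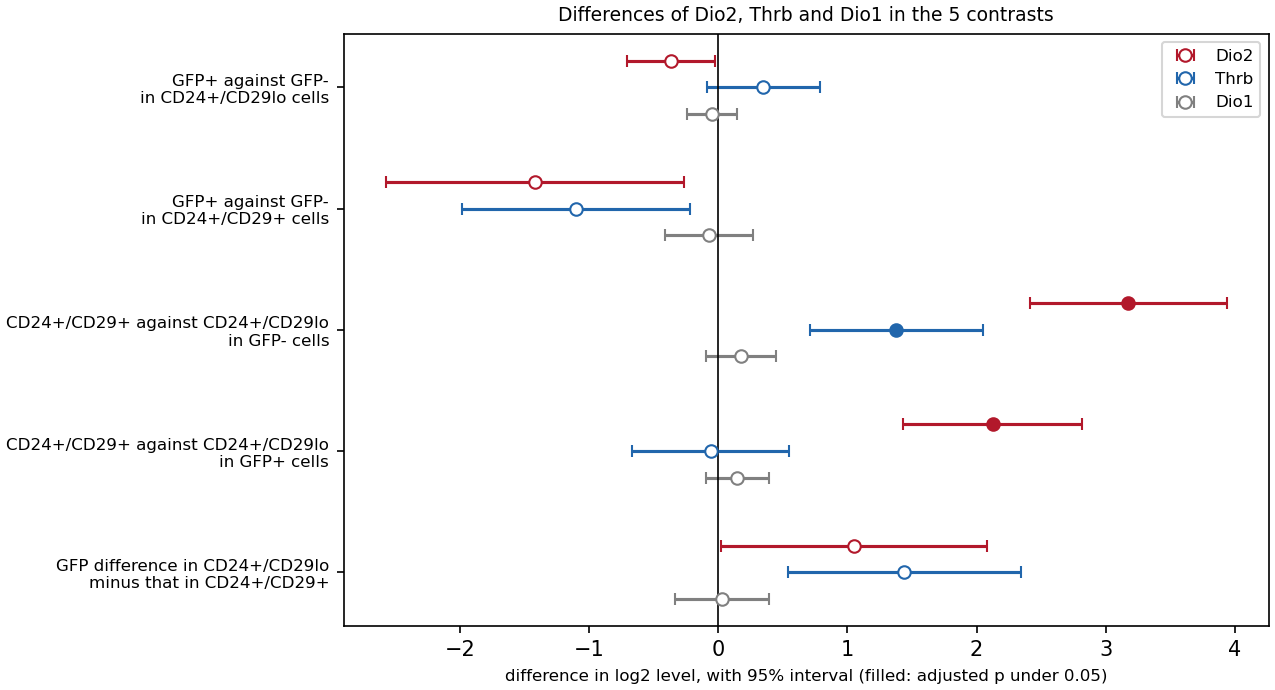
Differences in log2 level (horizontal axis) of Dio2 (ILMN_2771979), Thrb and Dio1 (ILMN_2647234) in the 5 contrasts (rows), with 95% intervals before adjustment; filled points have an adjusted p under 0.05. Dio2 is filled in both contrasts between the gates (3.18 and 2.12) and Thrb in the one among GFP- cells (1.38).

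Counted over the members picked by name, 3 probes were tested in each contrast, those of Thrb, Dio2 and Dio1. In CD24+/CD29+ against CD24+/CD29lo cells, 2 of 3 were called among GFP- cells, where 10.3% of all probes were called, and 1 of 3 among GFP+ cells, where 10.4% were. In GFP+ against GFP- cells, limma called 0 of 3 in the CD24+/CD29+ gate (2 at an unadjusted p under 0.05), where 0.0305% of all probes were called and 8.76% had such an unadjusted p. In the CD24+/CD29lo gate limma called 0 of 3 (1 at an unadjusted p under 0.05), where 1.03% of all probes were called and 9.86% had such an unadjusted p. For the gap between the GFP differences it called 0 of 3 (2 at an unadjusted p under 0.05), with 0.27% of all probes called and 8.26% under the unadjusted level. Over the 34 arrays the levels of Thrb and of Dio2 had r of -0.18 and -0.27 with Crym, and 0.20 and 0.40 after centring on the group means, a description over arrays that share 4 groups.

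A list of 70 other genes of thyroid hormone handling and of lysine and ketimine metabolism was read alongside, of which 64 have a named probe. Between GFP+ and GFP- CD24+/CD29lo cells 48 were tested and limma called 0 (7 at an unadjusted p under 0.05). Of all probes, 1.03% were called in that comparison and 9.86% had such an unadjusted p. The median difference was 0.01, as over all probes. Between GFP+ and GFP- CD24+/CD29+ cells 51 were tested and limma called 0 (4 at an unadjusted p under 0.05). Of all probes, 0.0305% were called there and 8.76% had such an unadjusted p. The median was -0.09 against -0.02 over all probes. Between CD24+/CD29+ and CD24+/CD29lo cells 55 were tested, and 3 rose and 3 fell among GFP- cells (10.9%), while 3 rose and 5 fell among GFP+ cells (14.5%). Those shares lie near the 10.3% and 10.4% over all probes, of which 5.29% rose and 5.04% fell among GFP- cells and 5.53% rose and 4.86% fell among GFP+ cells.

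Slc5a5, the iodide transporter and the only called gene of the 8 tested for hormone synthesis, was higher in the luminal gate in both GFP classes. In GFP+ CD24+/CD29+ cells it was 4.40 to 4.71, with 0 of 9 arrays detected, and in GFP- CD24+/CD29+ cells 2 of 6 arrays detected it, replicates 25 and 29 at 6.79 and 6.19. In GFP+ CD24+/CD29lo cells it was 4.48 at the lowest, 7.13 at the median and 8.78 at the highest, with detection on 8 of 9 arrays, and in GFP- CD24+/CD29lo cells 6.78, 8.98 and 10.00, with detection on 10 of 10. Crym, in contrast, was detected on 3 of 9 GFP+ CD24+/CD29lo arrays.

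Slc5a5 fell in CD24+/CD29+ against CD24+/CD29lo cells, by 3.64 (log2, SE 0.51, adjusted p = 2.75e-06) among GFP- cells. Among GFP+ cells the fitted difference was -2.32 (SE 0.46, adjusted p = 0.000479). With the undetected GFP+ CD24+/CD29+ arrays raised to their lowest detected signal, the estimated fall was 3.28-fold. Among GFP+ cells the second set of arrays alone gave -1.84 with an adjusted p of 0.0711. Between GFP+ and GFP- CD24+/CD29lo cells it differed by -1.93 (SE 0.53), which did not pass the threshold (adjusted p = 0.107). Its second probe, ILMN_1250582, was not called in either contrast between the gates.

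Of the 5 genes of hormone inactivation, 4 were tested. Dio3, the inactivating deiodinase, was detected on 4 arrays in all, GFP- CD24+/CD29+ replicates 13, 21, 29 and 30 at 5.45, 5.83, 6.87 and 6.17. Every other array lay at 4.94 or below. Dio3 rose among GFP- cells in CD24+/CD29+ against CD24+/CD29lo cells, by 1.03 (log2, SE 0.20, adjusted p = 0.000382), with 4 of 6 arrays above all 10. With the undetected CD24+/CD29lo arrays raised to their lowest detected signal, the estimated rise was 1.45-fold. That estimate is no strict bound, because only 4 of 6 CD24+/CD29+ arrays detected Dio3. In GFP+ against GFP- CD24+/CD29+ cells its difference was -0.95 (SE 0.28, adjusted p = 0.507). Fibroblast sums on the arrays with Dio3 were 918, 1861, 2420 and 1680, and 1149 and 1533 on the other arrays of the group, and their part in the Dio3 level was not tested.

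**Figure D5:**
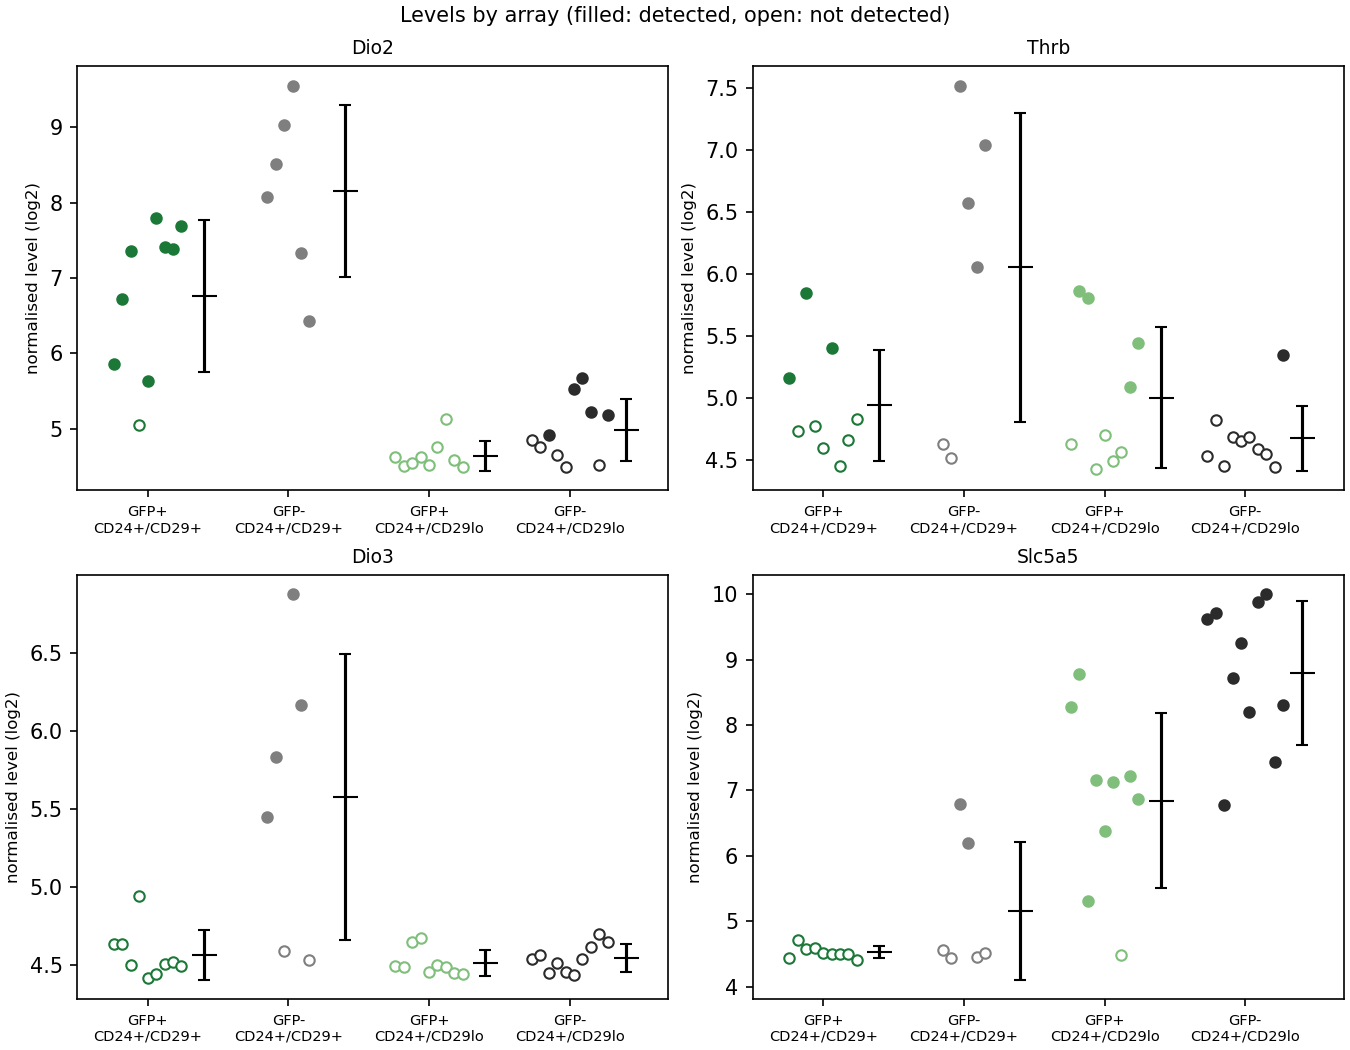
Normalised levels (vertical axes, log2) of Dio2 (ILMN_2771979), Thrb, Dio3 and Slc5a5 on each array of the 4 sorted groups; filled points are detected, open points are not, and bars are means and SD. Dio2 is detected on 14 of 15 CD24+/CD29+ arrays, Dio3 on 4 GFP- CD24+/CD29+ arrays alone, and Slc5a5 on 18 of 19 CD24+/CD29lo arrays.

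Ugt1a6a, a glucuronosyltransferase that conjugates thyroxine among other substrates, had the lowest adjusted p of the list between the gates. It was 8.15 ± 0.43 (n = 9) in GFP+ CD24+/CD29+ cells and 5.00 ± 0.55 on the 9 GFP+ CD24+/CD29lo arrays, and 7.97 ± 0.73 (n = 6) in GFP- CD24+/CD29+ cells and 4.91 ± 0.48 on the 10 GFP- CD24+/CD29lo arrays. The groups did not overlap in either pair, and the adjusted p was 1.86e-11 among GFP+ cells and 3.58e-10 among GFP- cells. Genes of the Ugt1a locus share exons, so the probe may read other members of that locus.

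Among 12 tested target genes of thyroid hormone, calls went both ways. Atp2a2, the calcium pump of the sarcoplasmic reticulum, rose in CD24+/CD29+ against CD24+/CD29lo cells, by 2.31 among GFP- cells (adjusted p = 6.88e-05) and 2.38 among GFP+ cells (adjusted p = 8.2e-06), but another of its 4 probes was called in neither and one only among GFP- cells. Me1, the malic enzyme, fell by 1.11 among GFP- cells (adjusted p = 0.000443) and by 0.68 among GFP+ cells (adjusted p = 0.0215). The Me1 call among GFP+ cells was lost without GFP+ CD24+/CD29lo replicate 10 (-0.60, adjusted p = 0.0542), with an offset of 50 (-0.36) and in either set of arrays alone (-0.83 in the first, -0.57 in the second). Mbp, myelin basic protein, fell among GFP+ cells (-2.71, adjusted p = 1.27e-06) by 1 probe of 5, and another of its probes rose slightly among GFP- cells (0.67, adjusted p = 0.0496).

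The remaining lists held 1 called gene or none. Between the gates 10.3% of all probes were called among GFP- cells and 10.4% among GFP+ cells. Med24, a Mediator subunit, was the 1 called of 15 tested receptor partners and coregulators, and fell by 2.06 among GFP- cells (adjusted p = 2.45e-05) and by 1.20 among GFP+ cells (adjusted p = 0.00571), though its second probe was not called and the second set of arrays alone gave -0.78 among GFP+ cells (adjusted p = 0.499). Slco3a1, an organic anion transporter, was the 1 called of 6 tested hormone transporters and rose among GFP+ cells by 2.58 (adjusted p = 0.0142), with another probe at 0.73 that was not called, and lost the call with no background correction (1.40, adjusted p = 0.0511) and in the second set (3.17, adjusted p = 0.175). Of the 8 tested genes of lysine and ketimine metabolism, the pathway in which mu-crystallin acts as a reductase, Kyat1, a kynurenine aminotransferase, fell among GFP+ cells by 2.04 (adjusted p = 0.00141), with its 2 other probes not called and -2.16 in the second set alone (adjusted p = 0.0947). Of the 3 plasma carriers of the hormone, up to 2 were tested and limma called none (Ttr had an unadjusted p under 0.05 in 2 comparisons). Ttr, transthyretin, had signal on none of the 9 GFP+ CD24+/CD29lo arrays and on 6 of the 10 GFP- CD24+/CD29lo arrays, and its difference between them was -1.52 (SE 0.52, adjusted p = 0.251). Serpina7, thyroxine-binding globulin, was detected on 3 of 34 arrays.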

How the data were processed

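Each of the 34 arrays had 1 deposited column of intensity values, which the authors give on a linear scale with no normalisation or background subtraction, and 1 deposited column of fractions, 1 minus the detection p. A separate deposited table holds the processed log2 values of the authors. The methods name quantile normalisation in GeneSpring and a correction for collection dates, but not which steps made that table, and the submitters' processing notes name R 2.14.1. All 34 arrays ranked closest to their own processed column, and 0 pairs were identical. The array sets come from medians of those values and are not a labelled batch.

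Signals were background-corrected, quantile-normalised and log2-transformed with neqc (limma 3.58.1, R 4.3.3, offset 16). For the GFP comparisons the arrays of 1 gate were normalised together, and otherwise all 34, so means differ slightly between the scales. Probes entered a test if, in 1 or more groups, at least 80% of arrays exceeded the 20th percentile of their array. Tests were two-sided limma tests, Benjamini-Hochberg adjusted over all probes kept, called at 0.05. They stood in for the unpaired t-test with the same correction that the methods name, which was run as an alternative. Of 45281 probes, 34885 had 1 symbol, 18 several and 10378 none. A gene's probe of highest mean stood for it. Members and lists were chosen with earlier results of these data known. Genes were named by rule: all members, up to 4 called genes per list or else the 2 of highest mean, and the genes most and least correlated with Crym. The number of arrays limits the precision. The steps were tested on simulated data.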

Additional observations from a re-analysis of the deposited data

Results flagged for a closer look

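In 3 of the 28 groups of levels checked, 1 array lay far from the rest of its group. Chance alone marks about 1 in 20 such groups. Crym stood at 5.21 on GFP+ CD24+/CD29+ replicate 32, where the nearest of the other 8 arrays was 4.67, and was not detected there. Thrb stood at 5.35 on GFP- CD24+/CD29lo replicate 31, the only array of that group to detect it, with the nearest at 4.82. Dio2 (ILMN_2771979) stood at 5.13 on GFP+ CD24+/CD29lo replicate 22, with the nearest at 4.76, and was not detected on that array, which also had the lowest share of detected probes of all 34.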

How the results depend on the processing

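No paired analysis was possible because the labels name no animal or sort, so any pairing of samples is unknown. Counts of called probes moved by more than 1.5 times as follows. For GFP+ against GFP- in CD24+/CD29lo cells, 329 became 570 with the authors' processed values, 526 with the array set as a term, 519 with array weights and 70 in the second set of arrays. For GFP+ against GFP- in CD24+/CD29+ cells, 10 became 4 with the processed values and 0 with no background correction, with an offset of 50, with the array set as a term, in the second set or with the methods' t-test (2917 at an unadjusted p under 0.05, against 2868 with limma), and 0 to 16 with 1 array left out. The second set gave 2145 in place of 3705 for CD24+/CD29+ against CD24+/CD29lo in GFP- cells and 1948 in place of 3725 for CD24+/CD29+ against CD24+/CD29lo in GFP+ cells. For the GFP difference in CD24+/CD29lo minus GFP difference in CD24+/CD29+ cells, 97 became 176 with the processed values and 39 in the second set. The methods' t-test gave 269, 2914 and 3107 calls where limma gave 329, 3705 and 3725, and it kept the call of Thrb at an adjusted p of 0.0486. The second set alone holds fewer arrays; the cause of the other shifts was not tested. The t-test, the first set alone, the marker sum without Stc2 and r over only the GFP- CD24+/CD29lo arrays were chosen after seeing the data. No difference of a member or named gene that had been called turned round. Spearman's rho kept 3 of the 6 genes most like Crym and the processed values kept 4. Levels near background limit Thra, Dio1 and 1 Dio2 probe to upper bounds.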
